A study of Mus musculus with 9 samples.

Results

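Microglia, the resident macrophages of the retina, carry a set of genes in their resting state, called homeostatic genes. Many of them, though not Csf1r and Cx3cr1, are low or absent in other macrophages. The expression of 9 of these homeostatic genes was followed in retinas after laser-induced retinal vein occlusion (RVO): P2ry12, P2ry13, Gpr34, Siglech, Tmem119, Sall1, Cx3cr1, Csf1r and Olfml3. They were picked by gene symbol from a table of raw read counts per gene, and all 9 were present among its 48587 gene names. Each of the 9 passed the filter on low counts in every comparison.

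Retinas came from C57BL/6J mice, an inbred strain, at 12 weeks of age. Each of the 3 groups held 3 RNA samples, and each sample was a pool of 6 retinas. Mice of the laser groups received an intraperitoneal injection of the photosensitizer eosin Y. In RVO eyes, the laser then closed the large veins. The fellow eyes of the same mice served as the control: here the spots, matched in number and strength, were set away from large vessels so that no vein was closed. RVO and control retinas were collected 2 days after the laser (d2). Untreated retinas came from other mice that were left without laser. RVO and control eyes therefore share eosin Y and laser injury and differ in vein occlusion. As whole retinas were used, fewer microglia and less RNA of a gene per microglial cell cannot be told apart.

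P2Y12 and P2Y13 are receptors for ADP, a nucleotide set free by injured cells, and P2Y12 steers microglial processes towards such sites. GPR34 is a receptor for lysophosphatidylserine. Siglec-H is a cell surface receptor of the Siglec family of lectins, and TMEM119 is a membrane protein used to tell microglia from macrophages that enter from the blood. SALL1 is a zinc finger transcription factor of the microglial programme. CX3CR1 is the receptor for fractalkine, CSF1R is the receptor for the survival factors CSF1 and IL-34, and both are also found on monocytes and other macrophages. Olfml3 encodes a secreted glycoprotein. Microglia are known to lose expression of many of these genes when they react to injury.

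The genes P2ry12 and P2ry13 lie side by side on the minus strand of chromosome 3 (GRCm38, chr3:59216272-59262871 and chr3:59207892-59210882), and the gene Med12l overlaps both on the opposite strand. Siglech lies on the plus strand of chromosome 7 (chr7:55768178-55778925). All 3 fell in both laser groups, so the 250 bases before their start sites are shown 5′ to 3′ from the RefSeq promoter table for GRCm38.p6, in which 6 of the 9 genes were matched. Capitals mark complete matches to GAGGAA or GGAAGT on either strand, which are parts of the sequence GAGGAAGT bound by PU.1, the lineage factor of macrophages.
P2ry12, minus strand, chr3:59262986-59263235: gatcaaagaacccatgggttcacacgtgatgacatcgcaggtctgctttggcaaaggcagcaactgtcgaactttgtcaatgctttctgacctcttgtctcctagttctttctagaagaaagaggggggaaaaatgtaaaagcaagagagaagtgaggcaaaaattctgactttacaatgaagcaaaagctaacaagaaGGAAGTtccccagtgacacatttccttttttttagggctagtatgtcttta
P2ry13, minus strand, chr3:59210883-59211132: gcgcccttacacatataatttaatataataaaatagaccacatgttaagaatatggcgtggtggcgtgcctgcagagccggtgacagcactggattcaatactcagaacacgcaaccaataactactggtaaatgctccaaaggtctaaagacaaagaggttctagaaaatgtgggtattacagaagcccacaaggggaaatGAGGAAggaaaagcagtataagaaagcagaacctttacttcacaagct
Siglech, plus strand, chr7:55767934-55768183: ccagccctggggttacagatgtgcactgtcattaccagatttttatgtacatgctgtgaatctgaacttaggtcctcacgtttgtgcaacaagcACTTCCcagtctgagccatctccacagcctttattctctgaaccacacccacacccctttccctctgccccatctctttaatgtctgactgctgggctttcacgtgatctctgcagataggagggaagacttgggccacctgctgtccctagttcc
The whole GAGGAAGT was in none of the 6 genes' windows and in 3.20% of the 32851 windows of 300 bases in the table (250 before and 50 after the start). GAGGAA was present in the windows of 2 of the 6 genes and in 28.3% of all windows. It began at position -48 in P2ry13, and in Siglech a match on the reverse strand spanned the start site from position -4, which is why it is not in capitals. GGAAGT was present in 3 of the 6 genes and in 23.8% of all windows. It began at position -51 in P2ry12, at -156 on the reverse strand in Siglech and at -180 in 1 of the 3 windows of Sall1. This shorter form was searched after the P2ry12 window had been seen, and it can overlap GAGGAA within GAGGAAGT. The ETS-IRF composite (GGAA and GAAA with 2 bases between them) and the MEF2 core TAAAAATA were found in none of the 6 genes' windows, on either strand, and each was in 2.72% of all windows. These matches describe letters only.

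The other members are also protein coding and lie at chr5:113793729-113800516 (Tmem119, minus strand), chr9:119901616-120069879 (Cx3cr1, minus strand), chr8:89027235-89044162 (Sall1, minus strand), chrX:13632089-13640858 (Gpr34, plus strand), chr18:61100598-61132149 (Csf1r, plus strand) and chr3:103722222-103738001 (Olfml3, minus strand). Exons of Csf1r and of Hmgxb3 on the opposite strand share 873 bases, or 15.1% of the Csf1r exon length. The library kit marks strand, but whether strand was used in counting is not given in the sources used here. Hmgxb3 was higher in RVO than in untreated retinas (log2 fold change 0.50 ± 0.12 SE, adjusted p = 0.00706; edgeR's quasi-likelihood test with Benjamini-Hochberg adjustment gave all adjusted p-values unless DESeq2 is named), the opposite of Csf1r below. Exon overlap was 9 bases of Med12l for P2ry12, 78 bases of the antisense gene Gm33858 for Cx3cr1 and 0 bases for P2ry13 with Med12l and for Gpr34 with Cask. Olfml3, Sall1, Siglech and Tmem119 had no overlapping gene in the annotation.

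Total counts per sample ranged from 21022997 to 28993921 in RVO, from 18897218 to 23419497 in control and from 12377572 to 15245869 in untreated retinas. Levels are CPM, in which counts are brought to a library of 1000000 counts after TMM scaling of library sizes. A gene is said to have risen or fallen where its adjusted p was under 0.01. Rod photoreceptor genes took the largest share of the marker lists in every sample, with a summed level of 39820 to 78550 CPM, as fits retina. Pools of 1 group differed by more than counting noise in every pair. RVO replicate 2 stood apart most: its chi-square per degree of freedom was 54.1 against replicate 1 and 29.3 against replicate 3, compared with 9.01 between those. Lens genes summed to between 17.1 and 746 CPM in RVO, between 21.3 and 291 CPM in control and between 1.00 and 4.30 CPM in untreated samples, and their part in the results was not tested.

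In untreated retinas, the 9 genes were expressed at low levels, between 2.29 CPM for Sall1 in replicate 3 and 46.9 CPM for Csf1r in replicate 3. Per kilobase of exon, P2ry12 had the highest mean level (7.92 CPM per kb), followed by Csf1r (6.70), Tmem119 (6.05), Gpr34 (4.58), Olfml3 (2.99), Cx3cr1 (2.91), P2ry13 (2.67), Siglech (1.65) and Sall1 (0.48). The ranges of neighbours in this order overlapped, except that Sall1 lay below Siglech in all 3 samples. In control retinas, the order per kb changed to Csf1r (4.41 CPM per kb), Olfml3 (3.53), Cx3cr1 (2.43), Tmem119 (1.61), Gpr34 (1.04), P2ry12 (0.96), P2ry13 (0.70), Siglech (0.42) and Sall1 (0.39). Here the ranges of neighbours were separate, except between Gpr34 and P2ry12 and between Siglech and Sall1. In RVO retinas, Csf1r (3.26 CPM per kb) and Olfml3 (2.62) again came first, P2ry12 (0.32) was in place 7 and Siglech (0.10) in place 9, and the ranges of all neighbours overlapped. P2ry12 thus moved from place 1 to place 6 and 7, whereas Cx3cr1 moved from place 6 to place 3 in both laser groups.

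**Figure D1:**
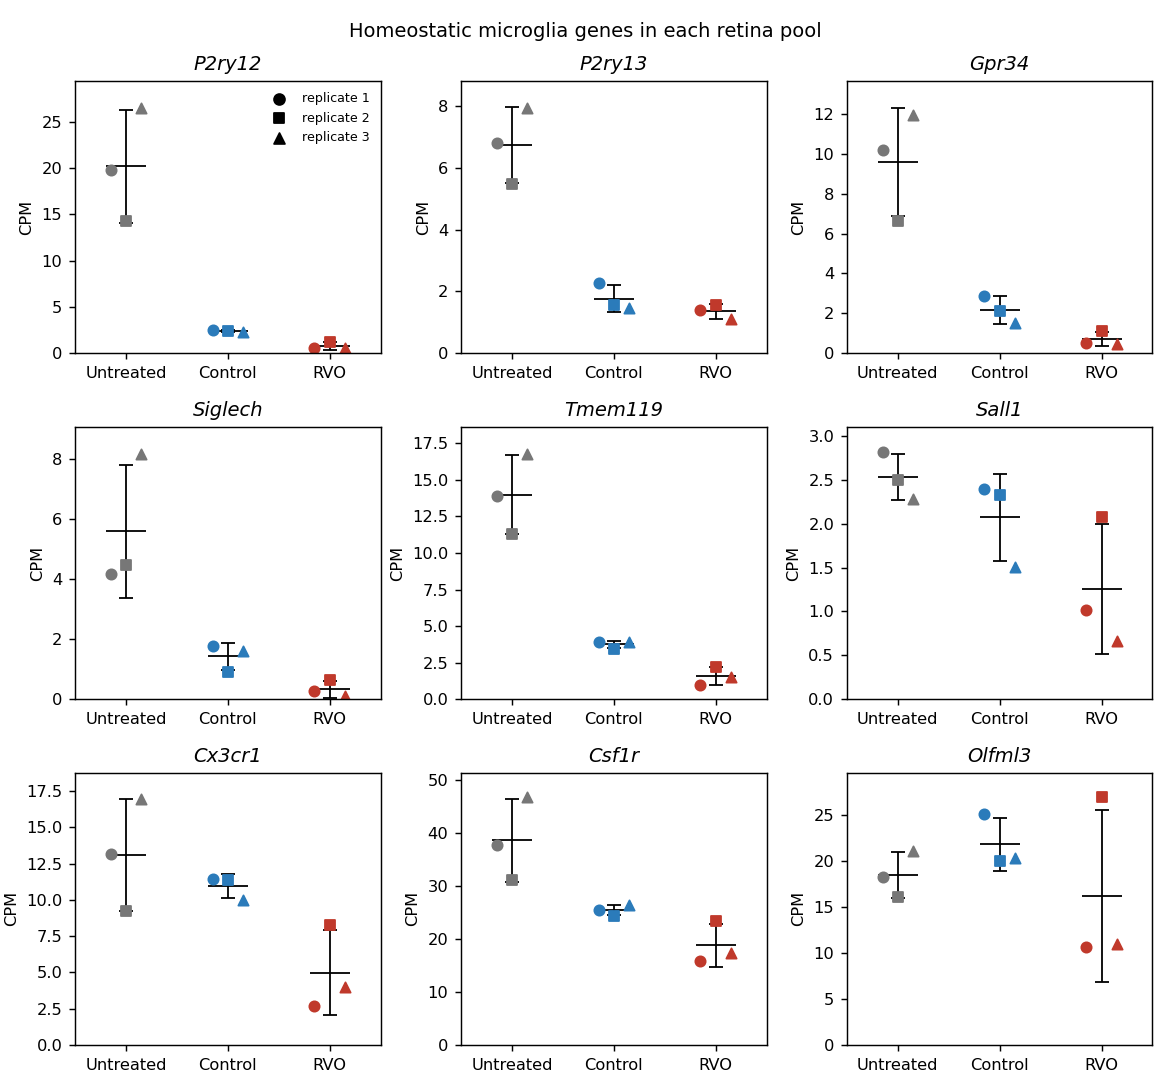
Level of each of the 9 homeostatic microglia genes in CPM (vertical axes, linear from 0) in untreated, control and RVO retinas. Symbols are single pools (circle replicate 1, square replicate 2, triangle replicate 3), long lines are group means and bars show 1 SD (n = 3). Untreated samples lie above all laser-treated samples for P2ry12, P2ry13, Gpr34, Siglech, Tmem119 and Csf1r, and RVO replicate 2 is the highest RVO sample in every panel.

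The purinergic receptor P2ry12 was the member with the largest change against untreated retinas. Its level was 19.8, 14.3 and 26.4 CPM in the untreated samples, 2.53, 2.43 and 2.34 CPM in the control samples and 0.54, 1.27 and 0.62 CPM in the RVO samples. The 3 groups did not overlap, and the order of untreated, control and RVO held for every sample. P2ry12 fell 24.7-fold in RVO retinas (log2 fold change -4.62 ± 0.35 SE, adjusted p = 2.75e-05). In control retinas it fell 8.20-fold (log2 fold change -3.04 ± 0.21, adjusted p = 1.94e-07).

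P2ry13, its neighbour on chromosome 3 and the other ADP receptor, fell in both laser groups. Untreated samples had 6.81, 5.47 and 7.93 CPM, control samples 2.26, 1.57 and 1.47 CPM and RVO samples 1.40, 1.57 and 1.10 CPM. Both laser groups lay below all untreated samples and overlapped each other. The fall was 4.83-fold in RVO (log2 fold change -2.27 ± 0.23, adjusted p = 8.17e-05) and 3.77-fold in control retinas (-1.91 ± 0.21, adjusted p = 6.10e-06).

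The lysophospholipid receptor gene Gpr34 was measured at 10.2, 6.64 and 11.9 CPM in untreated, at 2.89, 2.12 and 1.51 CPM in control and at 0.54, 1.10 and 0.48 CPM in RVO samples. No 2 groups overlapped. Gpr34 fell 13.3-fold in RVO (log2 fold change -3.73 ± 0.35, adjusted p = 6.40e-05) and 4.37-fold in control retinas (-2.13 ± 0.25, adjusted p = 9.79e-06).

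The surface protein genes Siglech and Tmem119 showed the same order of the groups. Siglech was at 4.18, 4.45 and 8.14 CPM in untreated, at 1.76, 0.91 and 1.59 CPM in control and at 0.25, 0.64 and 0.09 CPM in RVO samples. The RVO values rest on 8, 15 and 2 counts, so their precision is low. Siglech fell 16.7-fold in RVO (log2 fold change -4.06 ± 0.51, adjusted p = 0.000243) and 3.88-fold in control retinas (-1.96 ± 0.29, adjusted p = 7.81e-05). Tmem119 was at 13.9, 11.3 and 16.8 CPM in untreated, at 3.89, 3.44 and 3.89 CPM in control and at 0.99, 2.21 and 1.5 CPM in RVO samples. Its groups did not overlap either. Tmem119 fell 8.88-fold in RVO (log2 fold change -3.15 ± 0.29, adjusted p = 5.78e-05) and 3.70-fold in control retinas (-1.89 ± 0.16, adjusted p = 6.21e-07).

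The growth factor receptor gene Csf1r, shared with other macrophages, changed less. It was at 37.9, 31.3 and 46.9 CPM in untreated, at 25.5, 24.5 and 26.5 CPM in control and at 15.8, 23.5 and 17.3 CPM in RVO samples. Every untreated sample was above every control sample, and every control sample was above every RVO sample. Csf1r fell 2.01-fold in RVO (log2 fold change -1.01 ± 0.19, adjusted p = 0.00171) and 1.5-fold in control retinas (-0.59 ± 0.12, adjusted p = 0.000863). Without RVO replicate 3 the former adjusted p was 0.0104, and with library sizes alone the latter was 0.0101.

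The fractalkine receptor gene Cx3cr1 was at 13.2, 9.22 and 16.9 CPM in untreated, at 11.4, 11.4 and 10 CPM in control and at 2.71, 8.28 and 3.96 CPM in RVO samples. Control samples lay within the untreated range, and RVO samples lay below both other groups. The log2 fold change was -0.25 ± 0.17 in control retinas (adjusted p = 0.219) and -1.38 ± 0.40 in RVO retinas (adjusted p = 0.0148), where it missed the threshold of 0.01. Without RVO replicate 2 the latter was -1.95 (adjusted p = 7.30e-06).

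The transcription factor gene Sall1 was at 2.82, 2.50 and 2.29 CPM in untreated, at 2.40, 2.32 and 1.51 CPM in control and at 1.02, 2.08 and 0.66 CPM in RVO samples. RVO samples were below all untreated samples, and control samples overlapped both groups. Neither difference from untreated passed the test (log2 fold change -0.98 ± 0.39, adjusted p = 0.0518 in RVO; -0.27 ± 0.23, adjusted p = 0.331 in control). Counts of Sall1 were between 15 and 53 per sample.

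Olfml3 was the member with the smallest difference from untreated retinas in RVO. It was at 18.3, 16 and 21.1 CPM in untreated, at 25.1, 19.9 and 20.3 CPM in control and at 10.6, 26.9 and 11 CPM in RVO samples. RVO replicate 2 was above all untreated samples and the other RVO samples were below them. The log2 fold change was -0.17 ± 0.34 in RVO (adjusted p = 0.685), with the opposite sign without RVO replicate 1 or 3 or with library sizes alone. It was -0.73 without RVO replicate 2 (adjusted p = 0.000234). In control retinas the log2 fold change was 0.25 ± 0.12 (adjusted p = 0.0763).

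Over the 9 genes, 6 fell and 0 rose in RVO compared with untreated retinas, where 24.6% of the 16380 tested genes were lower and 27.4% higher. At an adjusted p under 0.05, 7 members were lower (32.5% of all genes), and for 8 members all RVO samples were below all untreated samples (37.5% of all genes). In control compared with untreated retinas, 6 members fell and 0 rose, where 25.2% of 16066 genes were lower and 27.2% higher. The same 6 members had no overlap between the groups (35.4% of all genes were lower without overlap). These were P2ry12, P2ry13, Gpr34, Siglech, Tmem119 and Csf1r in both comparisons, which share the untreated samples. The median log2 fold change of the members was -2.27 in RVO and -1.89 in control retinas, and that of all tested genes was 0.01 in both.

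**Figure D2:**
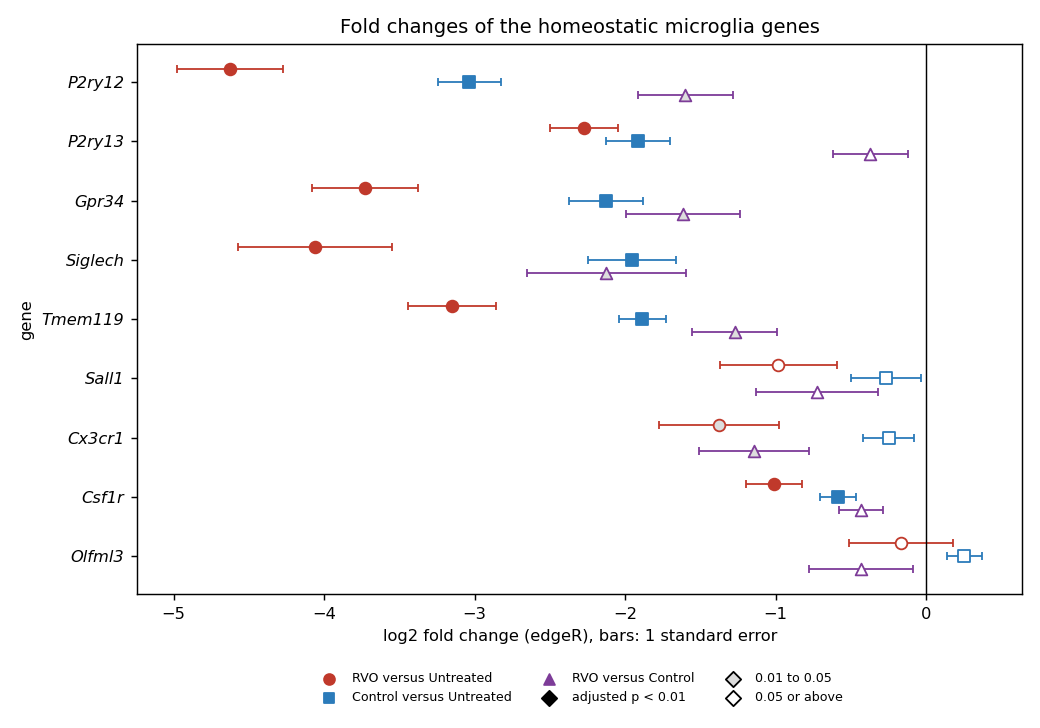
Log2 fold changes of the 9 genes (horizontal axis, edgeR) in RVO versus untreated (circles), control versus untreated (squares) and RVO versus control retinas (triangles), with bars of 1 standard error. Filled symbols have an adjusted p under 0.01, grey symbols one between 0.01 and 0.05 and open symbols one of 0.05 or above. All values but that of Olfml3 in control versus untreated are below 0, down to -4.62 for P2ry12 in RVO, though that of Olfml3 in RVO versus untreated changes sign without RVO replicate 1 or 3 and with library sizes alone.

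Vein occlusion was then compared with the same laser load placed between vessels. None of the 9 genes passed the threshold of 0.01 in edgeR (0 members, with 0.634% of 16874 genes lower and 2.70% higher). An unadjusted p under 0.05 was found for 6 members, and for 7940 of the 16874 genes in either direction. DESeq2 called 5 members lower (12.9% of all genes). At an adjusted p under 0.05, 5 members were lower in RVO than in control retinas (17.1% of all genes were). These were Siglech (4.36-fold, log2 fold change -2.13 ± 0.53, adjusted p = 0.0216), Gpr34 (3.07-fold, -1.62 ± 0.38, adjusted p = 0.0185), P2ry12 (3.03-fold, -1.60 ± 0.32, adjusted p = 0.0132), Tmem119 (2.42-fold, -1.27 ± 0.28, adjusted p = 0.0160) and Cx3cr1 (2.21-fold, -1.14 ± 0.36, adjusted p = 0.0454). For these and for Csf1r (log2 fold change -0.44 ± 0.15, adjusted p = 0.0531), all 3 RVO samples were below all 3 control samples (6 of 9 members and 25.8% of all genes). P2ry13 (-0.37 ± 0.25, adjusted p = 0.275), Sall1 (-0.73 ± 0.41, adjusted p = 0.197) and Olfml3 (-0.43 ± 0.35, adjusted p = 0.357) overlapped between the groups. The median over the members was -1.14 and that of all tested genes 0.02.

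RVO replicate 2 was the highest of the RVO samples for 9 of 9 members. Without it, 8 members were lower in RVO than in control retinas at an adjusted p under 0.01, with log2 fold changes from -2.95 for Siglech to -0.64 for Csf1r, and P2ry13 was not (-0.49, adjusted p = 0.160). Without it the number of all genes called also went from 563 to 6257. Without RVO replicate 3, Control replicate 2 or Control replicate 3 that number was 0, without Control replicate 1 it was 1 and without RVO replicate 1 it was 29, so the calls between RVO and control retinas named here and below depend on which samples are included. RVO replicate 2 had the lowest sum of neutrophil markers in its group (35.8 CPM, against 84.1 and 88.3 CPM). Its sum of monocyte markers was also lowest (204 CPM, against 243 and 258 CPM). Most of that difference lay in Thbs1 (92.45 CPM, against 111 and 116) and Arg1 (23.6 CPM, against 45.8 and 46.4). Ccr2, Chil3, Ms4a4c, Ms4a7 and Itga4 were not lowest in this sample, whereas the other listed monocyte markers were. This sample also had by far the highest lens sum (746 CPM, against 17.1 and 62.9 CPM). The crystallin gene Crygs made up 545 CPM of it, against 12.6 and 45.3 CPM in replicates 1 and 3. Among control samples, replicate 1 was the highest for 7 of 9 members and had the highest lens sum as well (291 CPM, against 21.3 and 41.7 CPM; Crygs 228 CPM, against 29.9 and 16.1 CPM in replicates 2 and 3). In both laser groups, the pool with the most lens RNA was thus the one in which most members were highest. Among untreated samples, whose lens sums did not exceed 4.30 CPM, replicate 3 was the highest for 8 of 9 members. The part of these markers in the members' levels was not tested.

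Because Csf1r is made by microglia and by other macrophages, the counts of the other members were also set against those of Csf1r in the same library, a ratio that does not depend on library scaling. This ratio was chosen after the levels had been seen, and it shows unequal change of 2 genes only. With 3 samples against 3, an exact permutation test cannot go below 0.10, so no test was run. P2ry12 had 52.3, 45.8 and 56.3 counts per 100 counts of Csf1r in untreated samples. In control samples there were between 8.86 and 9.93, and in RVO samples between 3.43 and 5.42. The ratio was lower in each laser-treated sample than in any untreated sample, and the 3 groups did not overlap.

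Tmem119 per 100 Csf1r counts was nearly constant within untreated retinas (35.8 to 36.7) and lower in control (14.0 to 15.2) and RVO samples (6.26 to 9.40). Gpr34 followed the same order, with 21.2 to 26.9 in untreated, 5.70 to 11.3 in control and 2.80 to 4.70 in RVO samples. Siglech did too, with 11 to 17.4, 3.72 to 6.91 and 0.51 to 2.71. The groups of these 3 genes did not overlap in any pair. P2ry13 was also lower than in untreated samples (16.9 to 18.0), but its ratios in control (5.54 to 8.87) and RVO samples (6.36 to 8.89) overlapped.

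Sall1 and Cx3cr1 behaved otherwise. Sall1 per 100 Csf1r counts was 4.87 to 8 in untreated, 5.70 to 9.50 in control and 3.82 to 8.86 in RVO samples, with all groups overlapping. Cx3cr1 was 29.5 to 36.1 in untreated, 37.8 to 46.5 in control and 17.2 to 35.3 in RVO samples, so that control samples were above both other groups. Olfml3 was 44.9 to 51.2 in untreated, 76.7 to 98.4 in control and 63.4 to 114 in RVO samples. It was the member that gained on Csf1r in all 6 laser-treated samples. Of the summed CPM of the 9 genes, P2ry12 took 14.1% to 16.7% in untreated, 3.26% to 3.54% in control and 1.60% to 1.89% in RVO samples, whereas Olfml3 took 13.3% to 15.8%, 29.1% to 32.3% and 29.9% to 39.8%.

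**Figure D3:**
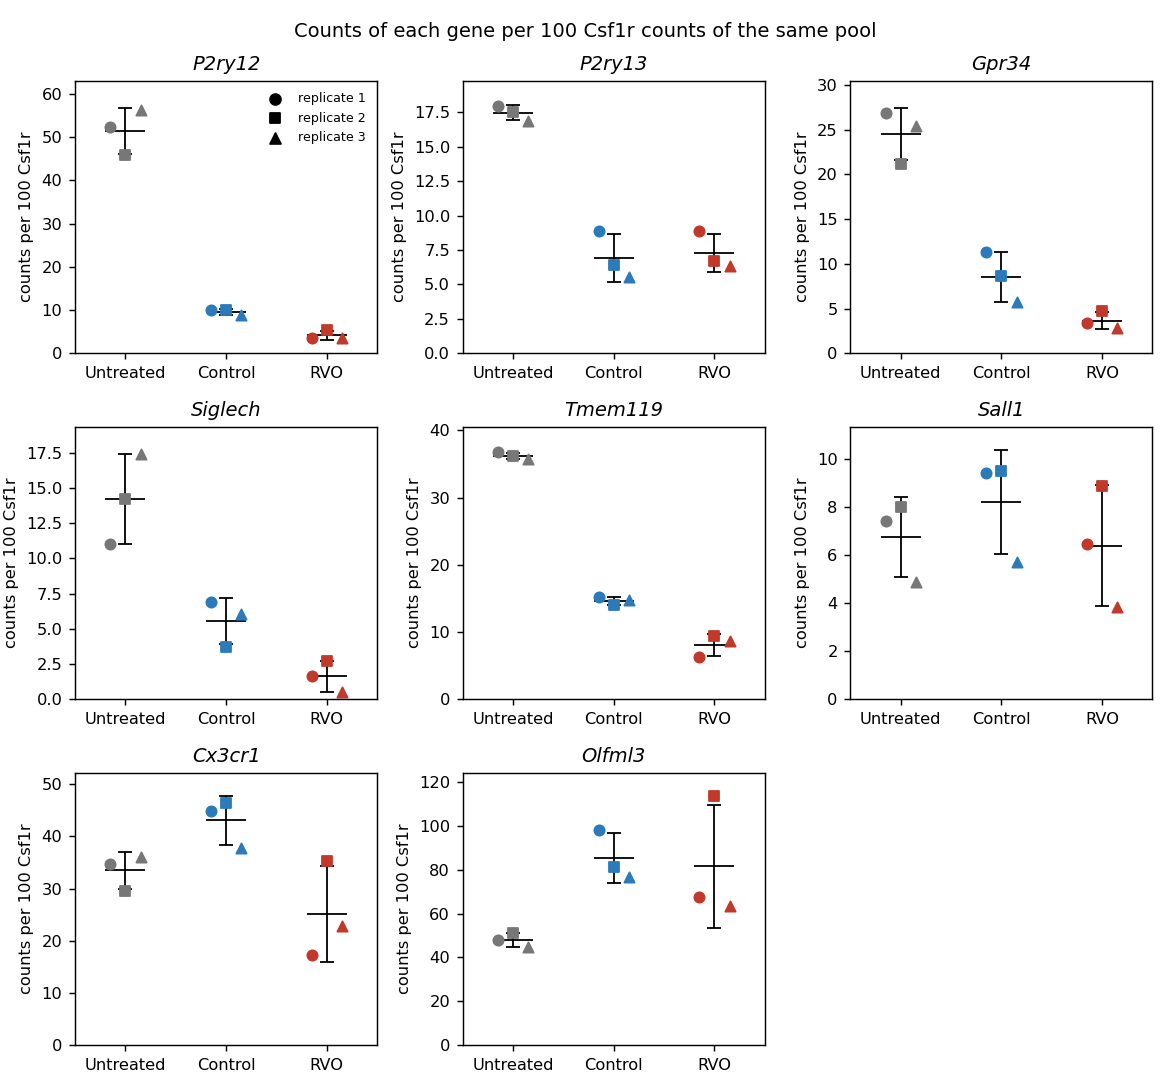
Counts of 8 members per 100 counts of Csf1r in the same pool (vertical axes, linear from 0) in untreated, control and RVO retinas. Symbols are single pools, long lines are group means and bars show 1 SD (n = 3). P2ry12, Gpr34, Siglech and Tmem119 step down from untreated to control to RVO without overlap, Sall1 overlaps in all groups and Olfml3 lies higher in both laser groups than in untreated retinas.

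A further 15 genes of resting microglia were examined as a list. Of the 14 tested, 4 were lower and 1 higher in RVO, and 6 were lower and 0 higher in control, each compared with untreated retinas. Beside the 24.6% (RVO) and 25.2% (control) of all genes that were lower, the count of 4 in RVO is near the background. Their median log2 fold changes of -0.28 and -0.34 were closer to 0 than those of the 9 members. Slc2a5, a fructose transporter, was at 0.27 ± 0.17 CPM in RVO, 0.57 ± 0.30 in control and 2.53 ± 0.94 CPM in untreated retinas (SD, n = 3). It fell 8.92-fold in RVO (adjusted p = 0.000568) and 4.26-fold in control (adjusted p = 0.000376). Ltc4s, the leukotriene C4 synthase gene, fell 5.62-fold in RVO (adjusted p = 0.00103) and 3.91-fold in control retinas (adjusted p = 0.000518). It had 2 to 6 counts per RVO, 4 to 6 per control and 8 to 15 per untreated sample, so the precision of these folds is low. Selplg, the P-selectin ligand gene, fell 2.28-fold in control retinas (adjusted p = 5.62e-05).

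Not all genes of that list went down. P2ry6, a receptor for UDP tied to phagocytosis, rose 2.53-fold in RVO compared with untreated retinas (0.97 ± 0.13 to 2.42 ± 0.27 CPM, adjusted p = 0.00125), in contrast to the ADP receptor genes P2ry12 and P2ry13. Between RVO and control retinas, 0 of 12 tested genes of the list passed 0.01 in either direction, 1 was lower and 2 were higher at 0.05 (17.5% of all genes were higher). The lower one was Slco2b1, a transporter of organic anions, at 2.6 ± 1.72 CPM in RVO and 7.96 ± 0.73 CPM in control retinas (adjusted p = 0.0203). Lpcat2 (1.62-fold, adjusted p = 0.0110) and Vsir (1.49-fold, adjusted p = 0.0202) were higher.

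The ligands of the member receptors went in different directions. Csf1, a ligand of CSF1R, rose 10.7-fold in RVO (4.38 ± 0.76 to 46.0 ± 12.5 CPM, adjusted p = 2.16e-05) and 5.77-fold in control retinas (25.3 ± 3.43 CPM, adjusted p = 6.59e-08). Il34, the other CSF1R ligand, rose 2.32-fold in control (adjusted p = 3.18e-05), while in RVO its log2 fold change was 0.62 ± 0.28 (adjusted p = 0.0771). Cx3cl1, which encodes fractalkine, rose 1.28-fold in control (96.7 ± 2.11 to 122 ± 3.50 CPM, adjusted p = 5.64e-05). In RVO samples it was at 39.7, 82.6 and 50.7 CPM, below every control and every untreated sample. This was 2.12-fold below control (log2 fold change -1.09 ± 0.24, adjusted p = 0.0155) and 1.64-fold below untreated retinas (-0.72 ± 0.23, adjusted p = 0.0229), neither of which passed 0.01. Like the members, Cx3cl1 was highest in RVO replicate 2 among the RVO samples.

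TGF-beta signalling is known to maintain the homeostatic genes. The ligand gene Tgfb1 rose 6.52-fold in RVO (adjusted p = 2.33e-05) and 3.50-fold in control retinas (adjusted p = 6.73e-06), and RVO exceeded control retinas by 1.84-fold (adjusted p = 0.00943). The receptor gene Tgfbr1 fell in both (1.36-fold, adjusted p = 0.00324; 1.41-fold, adjusted p = 0.000170), whereas Tgfbr2 did not pass the test (adjusted p = 0.422 and 0.0981). Smad3, which carries the signal to the nucleus, rose 2.03-fold in RVO and 1.38-fold in control retinas (adjusted p = 0.000143 and 7.30e-05).

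Among the transcription factors of myeloid cells, Irf8 rose 10.9-fold in RVO and 6.70-fold in control retinas (adjusted p = 0.000114 and 8.41e-07). Runx1 rose 12.4-fold and 2.73-fold (adjusted p = 0.000113 and 0.000350), and Spi1, which encodes PU.1, rose 3.71-fold and 2.10-fold (adjusted p = 0.000111 and 0.00389). Ikzf1 rose 2.34-fold in RVO (adjusted p = 0.00928), and in control retinas its adjusted p was 0.0138. Mef2c, which is also abundant in retinal neurons, fell 2.86-fold and 2.12-fold (adjusted p = 1.16e-05 and 2.20e-07).

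Other genes of nucleotide sensing were also measured. The ATP-gated channel gene P2rx4 rose 1.79-fold in RVO and 1.55-fold in control retinas (adjusted p = 0.000561 and 0.00139). P2rx7, another such channel, showed 2.27-fold more expression in RVO than in control retinas (adjusted p = 0.00989). Entpd1, an ectonucleotidase that removes ATP and ADP, had log2 fold changes of -0.78 in RVO (adjusted p = 0.0342) and -0.30 in control (adjusted p = 0.197), and the potassium channel gene Kcnk13 of 0.23 and -0.34 (adjusted p = 0.547 and 0.380). Of all 17 genes with a role beside the members, 2 fell and 8 rose in RVO, 2 fell and 9 rose in control, each against untreated, and 0 fell and 2 rose in RVO against control retinas. The shares of all genes lower and higher were 24.6% and 27.4%, 25.2% and 27.2%, and 0.634% and 2.70% in these comparisons.

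Genes shared by all macrophages were measured for comparison. Their list of 16 summed to 224 to 233 CPM in RVO, 161 to 192 in control and 141 to 201 CPM in untreated samples. In RVO, 8 of 16 were higher and 1 lower than in untreated retinas, and in control 5 were higher and 2 lower. Of all genes, 27.4% were higher in RVO and 27.2% in control, so that the count in control is near the background. Cd68, a lysosomal protein gene, rose 6.46-fold and Tyrobp, an adaptor of activating receptors, 4.79-fold in RVO (adjusted p = 1.31e-05 and 7.24e-05). Ptprc, which encodes CD45, rose 5.52-fold in RVO and 3.93-fold in control retinas (adjusted p = 0.000112 and 0.000224). Fcgr3, an Fc receptor gene, fell 3.26-fold in control retinas (adjusted p = 1.58e-07). Aif1, which encodes the microglia and macrophage marker Iba1, was at 1.28 ± 0.33 CPM in RVO, 2.11 ± 0.27 in control and 2.17 ± 0.85 CPM in untreated retinas and did not pass the test against untreated (adjusted p = 0.0714 and 0.882). Per 100 CPM of this list, the 9 members summed to 78.1, 72.0 and 78.9 CPM in untreated, 45.4, 35.8 and 42.7 CPM in control and 14.9, 30.2 and 15.7 CPM in RVO samples, with no overlap of groups.

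Many genes of reactive microglia and of cells from the blood, but not all of them, were higher in the laser groups beside the fall of the members. Of 18 tested genes of reactive microglia, 14 were higher and 1 lower in RVO, and 13 were higher and 1 lower in control than in untreated retinas. Among all genes, 27.4% were higher and 24.6% lower in RVO, and 27.2% and 25.2% in control. A log2 fold change below 0 was found for 4 of the 18 in each comparison, among them Igf1. Igf1 was at 37.7 to 46.0 CPM in untreated, 18.0 to 20.4 in control and 5.61 to 14.8 CPM in RVO samples. In each comparison, 2 of the 18 had at most 3 counts in every untreated sample and passed the filter only through the laser group. Lgals3, which encodes galectin-3, was at 2.04 ± 0.84 CPM in untreated, 50.3 ± 9.95 in control and 176 ± 22.4 CPM in RVO retinas, 89.9-fold higher in the latter than in untreated (adjusted p = 1.38e-06). Ch25h, the cholesterol 25-hydroxylase gene, rose 30.2-fold in RVO (adjusted p = 9.21e-06), a fold of low precision given its few untreated counts. The chemokine gene Ccl3 was at least 18.7-fold higher in RVO. Between RVO and control retinas, 6 of 19 were higher and 0 lower (2.70% and 0.634% of all genes), Lgals3 by 3.51-fold (adjusted p = 0.00459).

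Monocyte markers, a list of 12, summed to 76.0 to 82.8 CPM in untreated, 105 to 145 in control and 204 to 258 CPM in RVO samples. In every sample, most of this sum came from Itga4 and Thbs1. Itga4 was at 52.1 to 59.0 CPM in untreated and 62.7 to 69.05 CPM in RVO samples. Thbs1 was at 21.7 to 23.3 CPM in untreated and 92.45 to 116 CPM in RVO samples. Of the 12, 10 were higher in RVO, as were 7 of the 9 tested in control retinas (27.4% and 27.2% of all genes were higher). However, 6 of the 12 and 3 of the 9 had at most 3 counts in every untreated sample. These passed the filter only through the laser group, so the numbers of monocyte markers that were higher are no result. The defining markers Ly6c2, Ms4a4c and Chil3 had 0 counts in all untreated samples, and in RVO retinas Chil3 was at least 12.0-fold, Ms4a4c at least 5.20-fold and Ly6c2 at least 4.24-fold higher (bounds against 3 counts per library). Ccr2, the chemokine receptor gene of inflammatory monocytes, exceeded untreated retinas by at least 9.02-fold in control retinas. The 9 neutrophil markers summed to 0.16 to 1.07 CPM in untreated, 6.40 to 19.3 in control and 35.8 to 88.3 CPM in RVO samples, and Cxcr2, Ly6g, Retnlg and Mmp8 were at 0 in untreated samples. S100a9, a calprotectin subunit gene, was at 38.5, 13.9 and 39.5 CPM in RVO samples, at least 127-fold above untreated retinas (bound). With 0 to 7 counts per untreated sample, the 5 neutrophil markers that passed the filter on low counts did so through the RVO samples, so the number of them that were higher is no result. Lymphocyte markers summed to 0.50 to 1.18 CPM in untreated, 0.92 to 1.11 in control and 1.44 to 1.63 CPM in RVO samples, with Cd3e, Cd3g, Ms4a1 and Nkg7 at 0 in untreated samples.

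The 7 markers of macrophages at vessels and membranes summed to 15.6 to 18.2 CPM in untreated, 22.6 to 23.5 in control and 22.4 to 27.4 CPM in RVO samples. Of the 5 tested, 3 were higher in both laser groups than in untreated retinas (F13a1, Stab1 and Mrc1). However, F13a1 (3, 4 and 4 counts) and Mrc1 (6, 7 and 4) had few counts in untreated samples. Both passed the filter only through the laser groups, so this number is no result. The shares of all genes that were higher were 27.4% (RVO) and 27.2% (control). By contrast, Lyve1 was lower at an adjusted p under 0.05 in both laser groups. Lyve1 was at 0.89, 5.99 and 2.20 CPM in RVO, at 9.50, 9.80 and 8.83 CPM in control and at 13.1, 11.9 and 11.3 CPM in untreated samples, with no overlap of groups (adjusted p = 0.0111 in RVO and 0.0130 in control, each against untreated). Like the members, it was highest in replicate 2 among the RVO samples. Monocytes and these macrophages are also known to carry Csf1r and Cx3cr1. The part of these cells in the members' values was not tested.

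**Figure D4:**
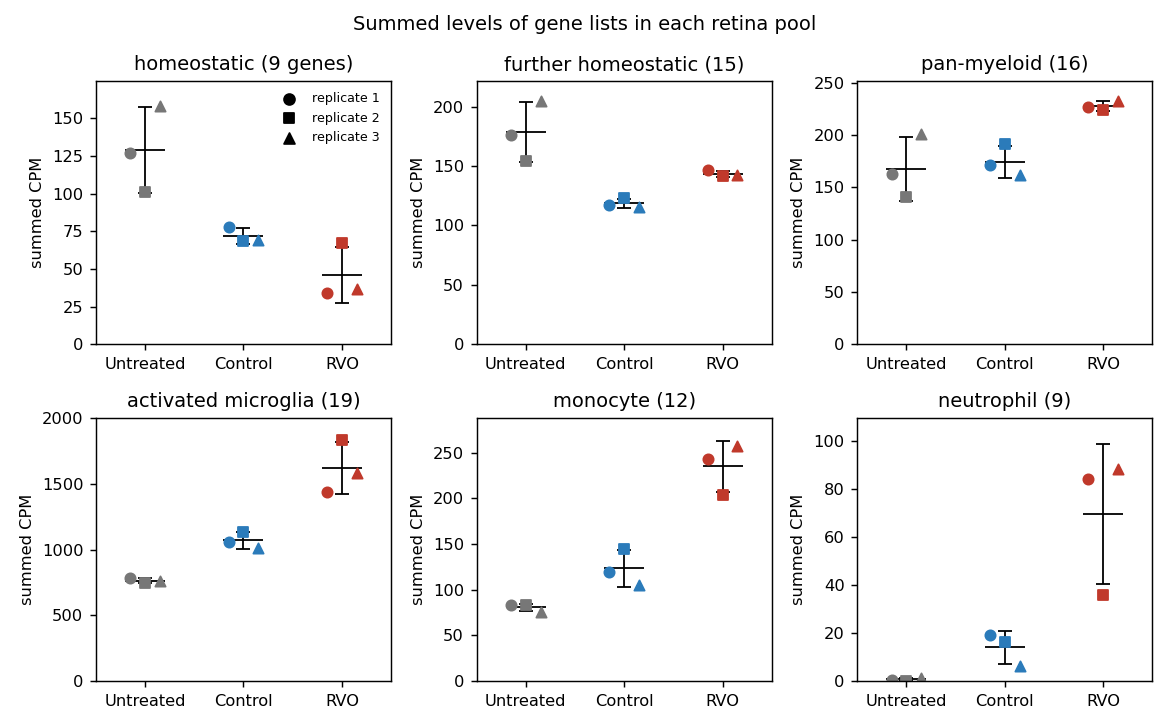
Summed level in CPM (vertical axes, linear from 0) of the 9 homeostatic genes, 15 further homeostatic genes and the pan-myeloid, reactive (activated) microglia, monocyte and neutrophil marker lists in untreated, control and RVO retinas. Symbols are single pools, long lines are group means and bars show 1 SD (n = 3). The sum of the 9 members goes from 101 to 158 CPM in untreated to 33.9 to 67.5 CPM in RVO samples while the reactive microglia, monocyte and neutrophil sums rise. Most of the monocyte sum comes from Itga4 and Thbs1 in every sample.

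Retinal cells of other types changed as well. Rod markers summed to 76920 to 78550 CPM in untreated, 47350 to 58750 in control and 39820 to 43780 CPM in RVO samples, an order like that of P2ry12. Müller glia markers summed to 3521 to 3771, 1880 to 2503 and 1186 to 1632 CPM. Endothelial markers summed to 146 to 152, 286 to 318 and 133 to 242 CPM, mostly from Kdr, which was at 239 to 265 CPM in control samples. Cdh5, the VE-cadherin gene, was at 9.75 to 10.5 CPM in RVO and 9.16 to 10.1 CPM in control samples and rose in both against untreated retinas (adjusted p = 8.66e-05 and 2.09e-06). Pericyte markers were lower in RVO samples (39.5 to 68.4 CPM) than in control (95.8 to 102) and untreated samples (88.0 to 102). Pigment epithelium markers overlapped in the 3 groups (332 to 553 CPM over all samples). Their part in the members' values was not tested.

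The members also moved together from sample to sample. Across the 9 samples, which include the differences between groups, the correlation of each member's log2 level with the mean of the other 8 was 0.97 for Csf1r, Gpr34 and Siglech, 0.95 for Tmem119, 0.94 for P2ry12, 0.90 for Cx3cr1, 0.86 for P2ry13, 0.85 for Sall1 and 0.54 for Olfml3. Olfml3 stood lowest here too. Among 14965 other genes with a mean of at least 1 CPM, those with a pattern most like the mean of the members included Tox3 (r = 0.99; 25.2 ± 3.40 CPM in untreated, 16.9 ± 0.29 in control and 10.7 ± 2.88 in RVO), Lgi2 (0.99), Klhl32 (0.99) and RP23-425N12.2 (0.98). As many as 1767 genes had r over 0.9, so this pattern was common in these retinas, and all values share the same 9 libraries and their scaling.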

How the data were processed

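Polyadenylated RNA of 9 retina pools (3 RVO, 3 control, 3 untreated) was sequenced with a stranded kit. The authors mapped reads with STAR 2.5.2b to GRCm38 with the Gencode vM11 annotation and deposited raw read counts per gene from featureCounts (Subread 1.5.1). The handling of strand and of reads matching several genes is not given in the sources used here. The table lists 48679 names, 92 of them spike-in controls with 0 counts, which were left out. Samples were grouped by their labels. Pools were counted as replicates, and p-values measure the spread between these pools. Exon lengths and coordinates came from GENCODE vM21, also on GRCm38. Promoters were taken from the RefSeq table, and matches are described with the sequences.

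Counts were analysed with R 4.3.3 and edgeR 4.0.16. Separately for every 2 groups, low counts were removed with filterByExpr, TMM factors (0.89 to 1.08 over all samples) scaled the libraries and genes were tested with the quasi-likelihood test. Benjamini-Hochberg adjustment ran over all genes tested, and genes under 0.01 were called ("rose" and "fell"), with those under 0.05 also given. The standard error (SE) is the absolute log2 fold change divided by the square root of F. CPM were computed with edgeR on the scaled library sizes and summarised in Python 3.11.15. For genes with no sample above 3 counts in 1 group, folds were taken against that floor per library and are lower bounds. These floors cover counting error only. Correlations used log2 CPM with a prior count of 2, scaled per gene across the 9 samples or, between replicates, as deviations from the group mean. DESeq2 1.42.0, other scalings, filters and fits, and leaving out each sample were alternatives. The test was checked on simulated data.

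The members and all gene lists were chosen with earlier results of these data known. Named were all 9 members, overlapping genes, the 17 genes with a role beside the members, up to 3 called genes with the largest absolute log2 fold change of each marker list, defining markers, and the 5 genes most similar to the members, except for 2 genes that are not reported here. The number of columns not used was 0.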

Additional observations from a re-analysis of the deposited data

How the results depend on the processing

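Members lower in RVO than in untreated retinas numbered 6, with 6 or 7 under the other tools, scalings, filters and fits and 5 to 9 when 1 sample was left out (9 without RVO replicate 2, 5 without RVO replicate 3). Calls over all genes, in either direction, moved as well. They numbered 8529 of 16380 genes in the main fit, 10491 of 16300 without RVO replicate 2 and 6364 of 16234 without RVO replicate 3. For control against untreated retinas, the count of lower members was 6 in every leave-one-out run, and 5 with library sizes alone and with 1 fit of all 9 samples, where the adjusted p of Csf1r was 0.0101 and 0.0109. Over all genes, 6915 to 8115 were called in the leave-one-out runs, 8386 with library sizes alone and 6400 with 1 fit. With library sizes alone, which moved the all-gene median of log2 fold changes to 0.22 (RVO) and 0.19 (control) against untreated, 1 member was higher in control retinas (Olfml3, log2 fold change 0.43, adjusted p = 0.00804). The count of members lower in RVO than in control retinas depended most on the processing. It was 0 in edgeR, 5 with DESeq2, 4 without a filter on low counts, 3 with 1 fit of all 9 samples, 5 at an adjusted p under 0.05 and 0 to 8 when 1 sample was left out. In the same order, 563, 4037, 3309, 3853, 5836 and 0 to 6257 of all genes were called in either direction. The 8 members came without RVO replicate 2, which also moved the adjusted p of P2ry12 from 0.0132 to 0.000116, and the cause was not tested.

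The log2 fold change of Olfml3 in RVO against untreated retinas changed sign with library sizes alone (0.039), without RVO replicate 1 (0.077) and without RVO replicate 3 (0.057), and its range when 1 sample was left out was -0.727 to 0.077. No other member's log2 fold change changed sign under any alternative. Siglech had no value for RVO against control with a filter of at least 1 CPM in 3 samples, which it did not pass.

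With the replicate number as a block, 7 members were lower in RVO and 6 in control than in untreated retinas. Over all genes, 8216 and 8409 were called in these comparisons in either direction. Between RVO and control retinas, 0 members were lower with the block (7 at an unadjusted p under 0.05, DESeq2 without the block 5). No gene of the whole table was called in that last comparison with the block (7227 at an unadjusted p under 0.05; DESeq2 without the block called 4037). Deviations of samples with the same number correlated by -0.13, -0.15 and 0.07 between RVO and control, -0.05, 0.08 and 0.02 between RVO and untreated and 0.01, -0.03 and 0.05 between control and untreated retinas. RVO and control pools come from fellow eyes of the same mice, but whether pools of the same number hold the same mice is not given in the sources used here, and these correlations do not show it. The depth limits Siglech in RVO (2 to 15 counts) and Sall1, and also Ltc4s and Slc2a5 among the further genes of resting microglia.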
